A study of Mus musculus with 24 samples.

Results

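The chaperones of the endoplasmic reticulum (ER) described here are 10 genes, Hspa5, Hsp90b1, Calr, Pdia4, Pdia6, Creld2, Sdf2l1, Dnajb11, Hyou1 and Manf. They were found through every probe set whose gene symbol in the array's annotation is 1 of these names, which gave 19 of the 45037 probe sets tested and 10 of 18193 genes. Their transcripts were measured in mouse brain on 24 Affymetrix arrays. The study asked what sleep loss does to the transcripts of cells that express Homer1a, a short Homer1 product that neuronal activity induces at the synapse. The mice were adult males of 12 weeks, taken at zeitgeber time 6, which is 6 h after light onset. The animals had either been kept awake by gentle handling for those 6 h or had been left alone. The groups were pull-down RNA of sleep-deprived mice (6 arrays), pull-down RNA of control mice (6 arrays), whole-brain RNA of sleep-deprived mice (4 arrays), whole-brain RNA of control mice (4 arrays) and pull-down supernatant (4 arrays). Pull-down RNA was polyadenylated RNA that was caught on anti-FLAG beads from formaldehyde-fixed brains by mRNA tagging, and it was amplified before labelling. In that method only chosen cells carry a poly(A)-binding protein with a FLAG tag, through which their messengers can be fished out. Supernatant is the total RNA of the same fixed extracts after the beads were removed, and its source label is Homer1a-negative cells. Whole-brain RNA was total RNA of unfixed brains. The sources used here do not give the promoter of the tagged protein, the strain, or whether total RNA was amplified in the same way. Supernatant 13 is sleep-deprived by its title and control by its source field, so all 4 supernatants were kept together and not split by sleep.

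Proteins that enter the ER are folded there by Hsp70 and Hsp90 chaperones, by lectin chaperones and by disulfide isomerases. When unfolded proteins accumulate, the unfolded protein response raises the transcription of these genes, in large part through the ER stress response element (ERSE), which is bound by NF-Y together with the cleaved form of ATF6. Hspa5 (BiP) is the ER member of the Hsp70 family and also holds the sensors of that response in their inactive state, and its transcript has been reported to be higher in rodent cortex after prolonged waking. The other genes were ordered by role: the Hsp90 chaperone Hsp90b1 (GRP94), the lectin chaperone calreticulin (Calr), the disulfide isomerases Pdia4 and Pdia6, the stress-inducible ER protein Creld2, the Hspa5 co-chaperones Dnajb11 and Hyou1, Sdf2l1, which forms a complex with Dnajb11, and the secreted Hspa5-binding protein Manf.

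The promoter stretches that hold an ERSE are printed because these letters are what several of the genes share beyond their function. In RefSeq's table for GRCm38.p6, 8 of the 10 genes had an entry of 300 bases, from 250 before to 50 after the transcription start. Hyou1 and Manf had none. Each stretch is given 5′ to 3′ on the strand of its gene, with the match in capitals. A match on the opposite strand begins with CGTGG and ends with ATTGG.
Hspa5, chr2:34772010-34772058, plus strand: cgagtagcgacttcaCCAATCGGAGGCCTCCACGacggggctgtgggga
Hsp90b1, chr10:86705518-86705671, minus strand: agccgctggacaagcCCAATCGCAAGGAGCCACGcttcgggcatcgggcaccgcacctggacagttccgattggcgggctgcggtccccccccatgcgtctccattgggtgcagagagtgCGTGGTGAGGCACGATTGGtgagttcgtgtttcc
Calr, chr8:84847060-84847108, minus strand: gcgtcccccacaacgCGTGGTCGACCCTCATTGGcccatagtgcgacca
Pdia6, chr12:17266476-17266524, plus strand: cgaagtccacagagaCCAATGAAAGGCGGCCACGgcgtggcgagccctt
Creld2, chr15:88819505-88819553, plus strand: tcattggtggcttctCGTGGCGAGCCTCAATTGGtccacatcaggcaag
Dnajb11, chr16:22857837-22857877, plus strand: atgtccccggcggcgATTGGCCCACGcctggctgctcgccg

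The ERSE was searched on both strands as CCAAT, any 9 bases, then CCACG. It was found in 5 of the 8 member promoters (Hspa5, Hsp90b1, Calr, Pdia6 and Creld2), against 39 of 32851 promoters in the whole table (0.119%). The promoter of Hsp90b1 held 2 matches on opposite strands. The match of Hspa5 lay from −65 to −47 relative to the start, those of Hsp90b1 from −212 to −194 and from −107 to −89, and that of Creld2 from −126 to −108. The related ERSE-II, searched on both strands as ATTGG, any base, then CCACG, was found in the promoter of Dnajb11 and in 12 of the 32851 promoters (0.0365%). The promoters of Sdf2l1 and Pdia4 held no exact match to either. The shorter letters that both elements contain were common: CCAAT occurred in 8 of 8 member promoters and in 37.4% of all, and CCACG in 8 of 8 and in 32.8%. TGACGTGG, the core of the element bound by XBP1, was in 0 of 8 member promoters and in 0.676% of all. A match describes letters in this window and is not a measured binding site.

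Values are log2 intensities as deposited, and differences are in log2 units with their standard error (SE). The median of an array lay between 4.37 and 5.7 in pull-down and averaged 6.13 in whole brain and 6.15 in supernatant, so most probe sets read lower in pull-down. The 3′ probe set of 18S ribosomal RNA, which carries no poly(A) tail, ranged from 6.55 to 12.2 in pull-down and averaged 14.17 in whole brain and 14.49 in supernatant. The 3′ minus 5′ difference of Gapdh, which grows when targets are short, averaged 4.92 in pull-down, 2.75 in whole brain and 2.43 in supernatant. By sleep, the 18S means were 9.0 in sleep-deprived and 9.02 in control pull-downs, and the Gapdh differences averaged 5.01 in sleep-deprived and 4.84 in control pull-downs. In whole brain the Gapdh difference ranged from 2.74 to 2.95 in sleep-deprived and from 2.49 to 2.78 in control arrays, and the array medians averaged 6.09 in sleep-deprived and 6.17 in control arrays. The part of these measures in the whole-brain differences was not tested. Of 6 Homer1 probe sets, pull-down was higher for 3 and lower for 2 when set against whole brain, and higher for 3 and lower for 3 when set against supernatant. The tables do not say which Homer1 transcript each probe set reads.

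In whole brain no member passed the test across all probe sets. The 3 Hspa5 probe sets and that of Creld2 read above the control mean in 4 of 4 sleep-deprived arrays. The same was true of Calr 1417606_a_at and 1433806_x_at, Pdia4 1416497_at, Sdf2l1, Dnajb11, Hyou1 1423291_s_at and Manf. How many of all probe sets did so was not counted. The difference was positive for 16 of the 19 member probe sets, against 33.3% of all probe sets. The members' median difference was 0.14, against −0.07 over all probe sets. After quantile normalization and after centring on array medians, 17 of 19 were positive. The median over all probe sets was then −0.0012 and 0.015. By limma with Benjamini-Hochberg adjustment, 0 of 19 were called, where 0.0466% of all probe sets were, and 4 of 19 had an unadjusted p under 0.05, where 10.9% of all did. In 3 of 19 every sleep-deprived array was above every control array, which held for 1.75% of all probe sets.

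Hspa5 probe set 1416064_a_at read 11.28, 11.33, 11.38 and 11.55 in sleep-deprived brains, against 10.78, 10.80, 10.91 and 11.12 in control brains. The groups did not overlap, and the highest control array lay close below the lowest sleep-deprived one. The difference was 0.48 ± 0.12 (limma, adjusted p = 0.226), a 1.40-fold difference, with a 95% interval from 0.23 to 0.73. The other Hspa5 probe sets pointed the same way, with 0.36 ± 0.13 for 1427464_s_at and 0.20 ± 0.13 for 1447824_x_at. With a variance trend in limma, 1416064_a_at passed (adjusted p = 0.0238), the sole member call among the alternatives run for this comparison.

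Creld2 had the lowest p of the members in whole brain. It read 8.37, 8.45, 8.47 and 8.61 in sleep-deprived brains, against 7.89, 7.96, 8.07 and 8.08 in control brains, so that the groups stood clearly apart. The difference was 0.48 ± 0.11 (limma, adjusted p = 0.194), a 1.39-fold difference.

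Dnajb11, the J-domain partner of Hspa5, read 9.60, 9.69, 9.70 and 9.73 in sleep-deprived brains, against 9.38, 9.51, 9.53 and 9.57 in control brains. Its groups did not overlap either, but by a margin of hundredths of a log2 unit (difference 0.18 ± 0.10; limma, adjusted p = 0.524). Manf read 8.93, 9.09, 9.11 and 9.21 in sleep-deprived brains, against 8.69, 8.71, 8.76 and 9.07 in control brains. Only the control array at 9.07 reached into the range of the sleep-deprived ones, and the difference was 0.28 ± 0.12 (limma, adjusted p = 0.429).

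Sdf2l1 read 6.61, 6.73, 6.77 and 7.07 in sleep-deprived brains, against 6.28, 6.45, 6.60 and 6.86 in control brains, and the groups overlapped (0.25 ± 0.14). Apart from Pdia4, the disulfide isomerase Pdia6 and the Hsp90 and lectin chaperones lay nearer to 0. Pdia4 1416497_at read 7.53, 7.60, 7.61 and 7.79 in sleep-deprived brains, against 7.26, 7.38, 7.48 and 7.58 in control brains. Its groups touched at 1 array, and it differed by 0.21 ± 0.11, and Pdia6 1423648_at by 0.07 ± 0.13. Hsp90b1 1415889_a_at read 10.44, 10.54, 10.65 and 10.75 in sleep-deprived brains, against 10.42, 10.51, 10.57 and 10.65 in control brains, which is nearly the same range. Both Hsp90b1 probe sets differed by 0.06 (SE 0.11 each), with intervals up to 0.30. Calr 1417606_a_at read 10.14, 10.15, 10.22 and 10.32 in sleep-deprived brains, against 9.87, 10.00, 10.07 and 10.29 in control brains, with 1 high control array. The 3 Calr probe sets lay between 0.08, for 1456170_x_at, and 0.15, and the 3 Hyou1 probe sets between −0.11 and 0.14. The remaining negative values were those of Pdia4 1450620_at (−0.18 ± 0.16) and Pdia6 1430983_at (−0.04 ± 0.14), both at low signal.

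**Figure D1:**
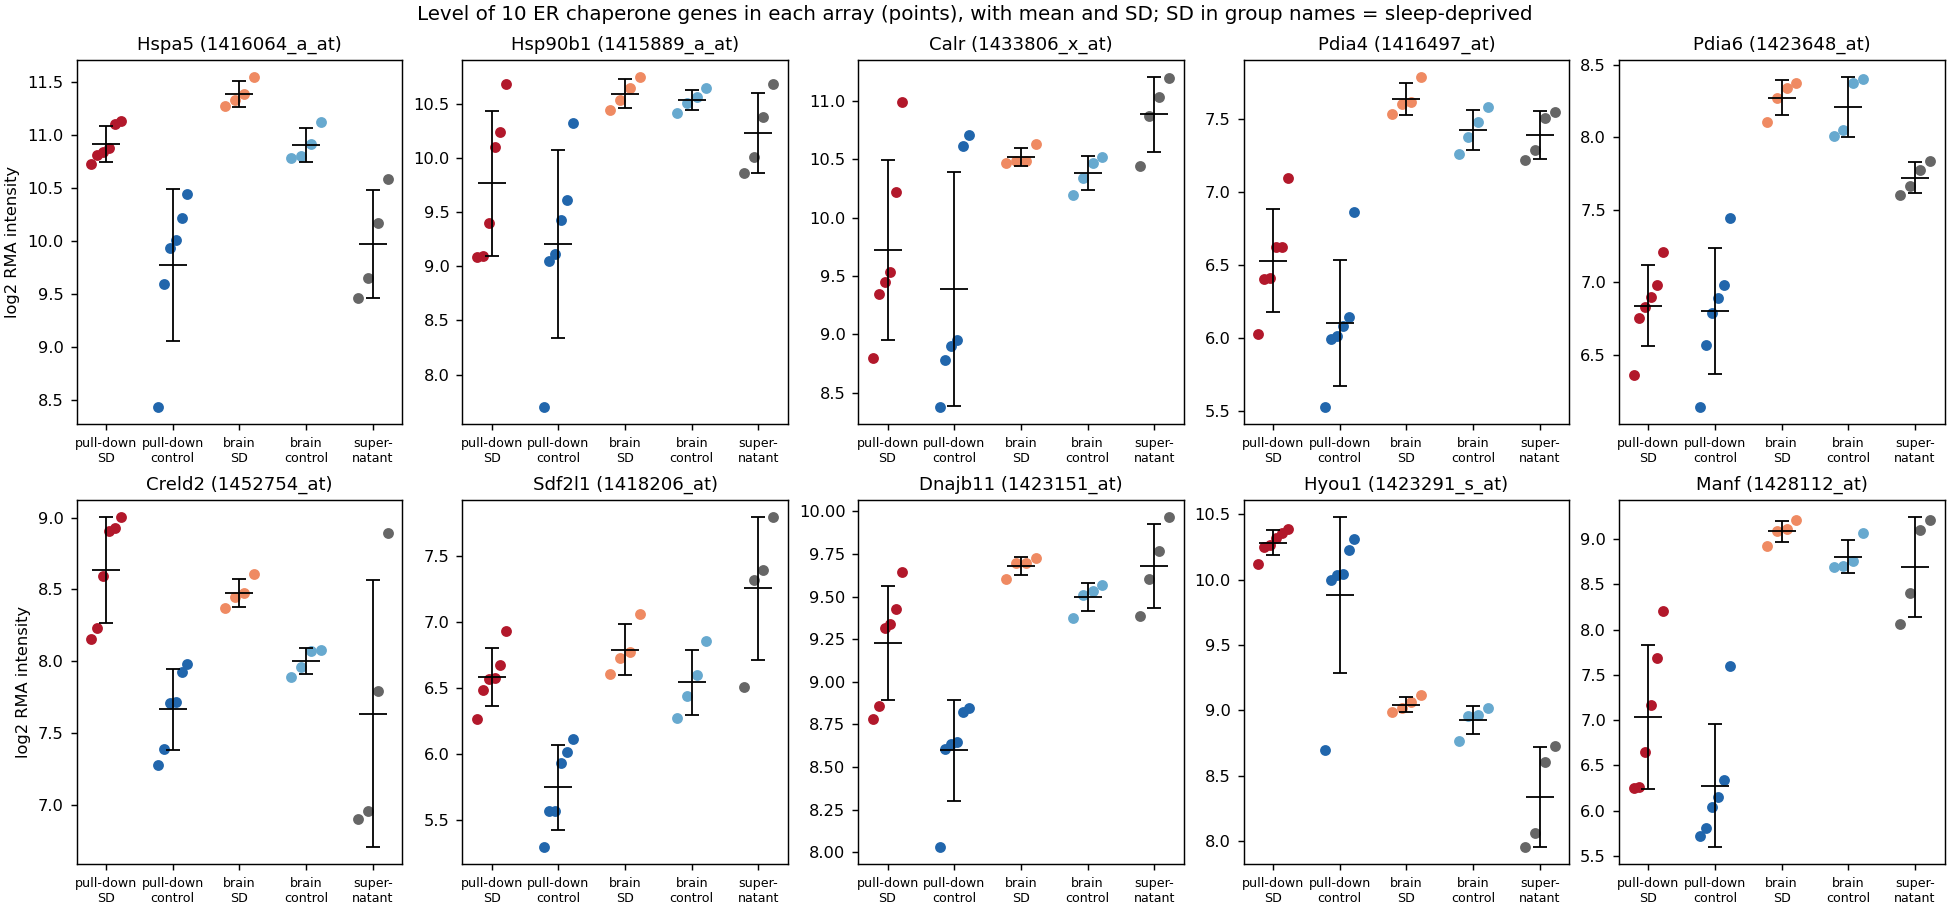
Level of each chaperone gene (log2 RMA intensity, 1 panel per gene with its probe set of highest mean) in every array, with bars for the group mean and SD; SD in a group name stands for sleep-deprived. The Hspa5 and Creld2 points of sleep-deprived mice lie above those of control mice in pull-down and in whole brain, whereas the Pdia6 and Calr points overlap in both.

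In pull-down RNA the differences of Hspa5, Creld2 and Sdf2l1 were among the largest of the members, and the arrays varied more than in whole brain. All 6 sleep-deprived pull-downs were above all 6 control pull-downs for Hspa5 1416064_a_at, Creld2 and Sdf2l1. That made 3 of 19 member probe sets, against 0.04% of all probe sets (18 of 45037). The difference was positive for 16 of 19 as deposited, against 39.5% of all, and the median member difference was 0.48, against −0.05 over all. After quantile normalization 16 were positive and after centring 17. The median over all probe sets was then 0.0037 and 0.071. By limma 0 of 19 were called, and 0% of all probe sets were. An unadjusted p under 0.05 was found for 7 of 19, against 0.955% of all.

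Hspa5 1416064_a_at had 10.72 as the lowest, 10.86 as the median and 11.13 as the highest value in sleep-deprived pull-downs, against 8.43, 9.97 and 10.44 in control pull-downs. The sleep-deprived arrays lay close together, and control pull-down 11 lay far below the other controls. The difference was 1.14 ± 0.30 (unadjusted p = 0.00113; limma, adjusted p = 1), a 2.21-fold difference that ranked 11 among 45037. Without control pull-down 11 it was 0.87. The Hspa5 probe set 1427464_s_at gave 1.14 ± 0.37 with overlapping groups, while 1447824_x_at gave 0.23 ± 0.22.

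Creld2 ran from 8.16 over a median of 8.75 to 9.0 in sleep-deprived pull-downs, against 7.28, 7.71 and 7.98 in control pull-downs. Its difference of 0.97 ± 0.24 (unadjusted p = 0.000775; limma, adjusted p = 1) ranked 22 among 45037. Sdf2l1 ran from 6.27 over 6.58 to 6.93 in sleep-deprived pull-downs, against 5.29, 5.75 and 6.12 in control pull-downs, a difference of 0.84 ± 0.23 (unadjusted p = 0.00168; limma, adjusted p = 1). For both genes the highest control array came near the lowest sleep-deprived one.

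Dnajb11 ran from 8.78 over 9.33 to 9.64 in sleep-deprived pull-downs, against 8.03, 8.64 and 8.84 in control pull-downs (0.63 ± 0.24; unadjusted p = 0.016; limma, adjusted p = 1). Manf ran from 6.25 over 6.91 to 8.21 in sleep-deprived pull-downs, against 5.72, 6.09 and 7.59 in control pull-downs (0.76 ± 0.37). The Manf groups overlapped widely, since 1 control array stood far above the rest.

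The other members had wide intervals. Hsp90b1 1438040_a_at ran from 7.93 over 8.59 to 10.29 in sleep-deprived pull-downs, against 6.43, 7.88 and 9.06 in control pull-downs. Both groups spread over more than their difference, and it differed by 1.00 ± 0.44 and 1415889_a_at by 0.56 ± 0.39. Calr 1433806_x_at ran from 8.79 over 9.49 to 10.99 in sleep-deprived pull-downs, against 8.38, 8.93 and 10.70 in control pull-downs, with wide overlap. The 3 Calr probe sets lay between 0.34 and 0.83 with SEs from 0.39 to 0.43. Pdia4 1416497_at differed by 0.43 ± 0.26 and Hyou1 1423291_s_at by 0.40 ± 0.27, while Pdia6 1423648_at, whose medians were 6.86 in sleep-deprived and 6.84 in control pull-downs, differed by 0.04 ± 0.25. The 3 negative values were −0.19 for Pdia6 1430983_at, −0.18 for Pdia4 1450620_at and −0.10 for Hyou1 1423290_at, none beyond its SE. In bulk RNA such as this, more cells of a type and more RNA per cell cannot be told apart.

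**Figure D2:**
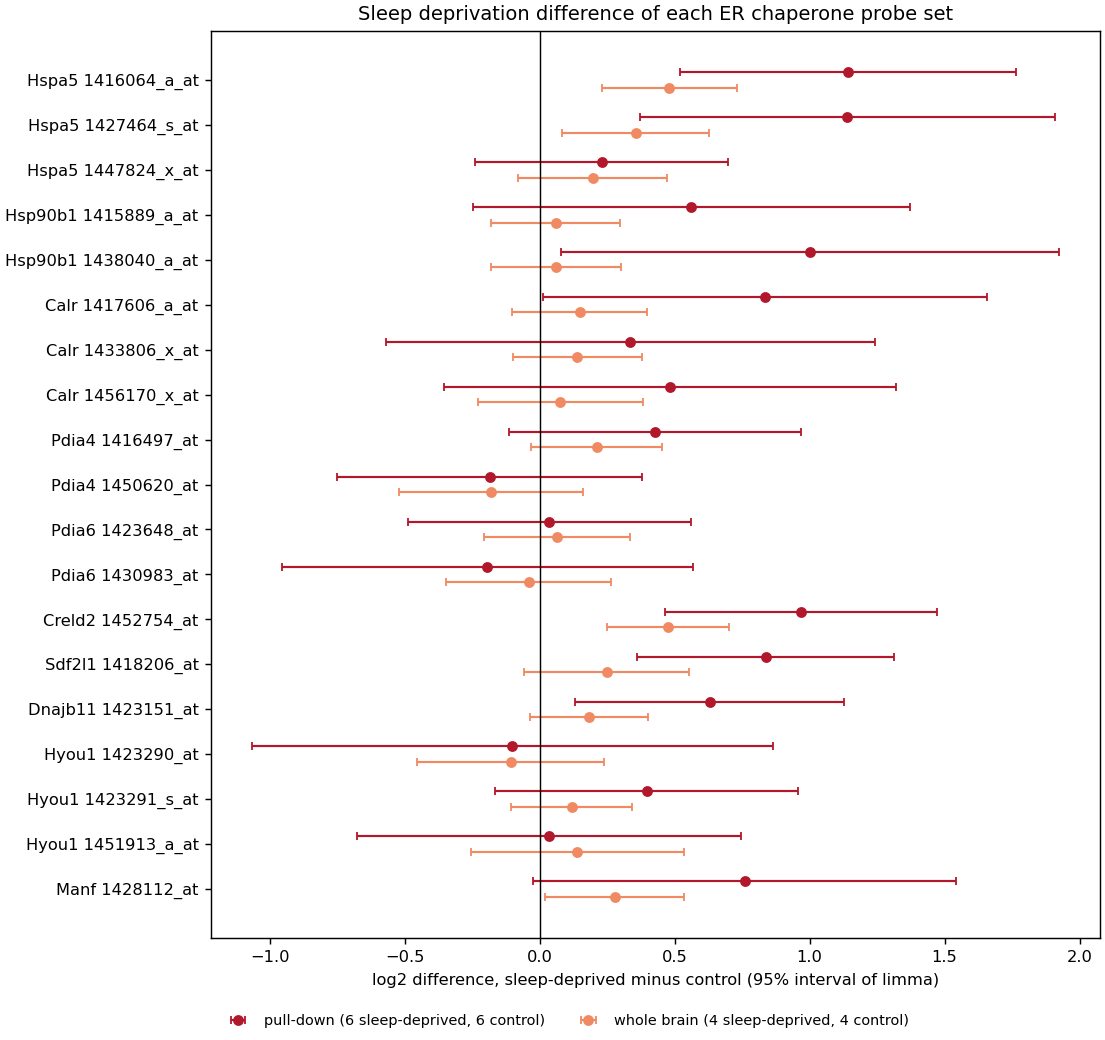
Sleep-deprived minus control difference (log2 units, with the 95% interval of limma) of each of the 19 chaperone probe sets in pull-down (6 against 6 arrays) and in whole brain (4 against 4 arrays). The intervals of Hspa5 1416064_a_at, Hspa5 1427464_s_at and Creld2 lie above 0 in both extracts, and the pull-down intervals are the wider ones.

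Both extracts ordered the genes in a similar way. With 1 probe set per gene, that of the highest mean, the difference was positive for 10 of 10 genes in pull-down (median 0.60) and for 10 of 10 in whole brain (median 0.20), where 43.9% and 36.7% of all genes were positive. Across the 10 genes the pull-down and whole-brain differences had a Pearson r of 0.87 and a Spearman rho of 0.83. The extracts share no array, though genes are not independent replicates, and over all 45037 probe sets r was 0.30. The pull-down difference was the larger one for 9 of 10 genes, against 56.9% of all genes, and for 15 of the 19 member probe sets, against 54.9% of all. Tested directly as an interaction in limma, the difference between extracts was called for 0 of 19 probe sets and for 0% of all, and 0 of 19 had an unadjusted p under 0.05, against 0.338% of all. For Hspa5 1416064_a_at it was 0.66 ± 0.38, for Creld2 0.49 ± 0.29 and for Sdf2l1 0.59 ± 0.29, each with an interval that includes 0.

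Several chaperone probe sets varied with the 18S signal of the pull-down arrays. Over the 12 pull-down arrays the Pearson r with 18S was 0.83 for Hsp90b1 1415889_a_at (permutation p = 0.00033, adjusted over 19 relations 0.00627; Spearman rho 0.83, permutation p = 0.00168). It was 0.83 for Calr 1433806_x_at (permutation p = 0.00151, adjusted 0.00956; rho 0.57, permutation p = 0.0553) and 0.79 for Manf (permutation p = 0.00261, adjusted 0.0124; rho 0.66, permutation p = 0.022). For Calr 1456170_x_at r was 0.82 (permutation p = 0.00133, adjusted 0.00956; rho 0.60, permutation p = 0.0428). For 3 probe sets r was near 0: it was 0.19 for Hspa5 1416064_a_at, 0.06 for Creld2 and −0.03 for Sdf2l1 (permutation p = 0.556, 0.848 and 0.918), with rho of 0.06, 0 and −0.09 (permutation p = 0.869, 1 and 0.781). The Hspa5 probe set 1427464_s_at had an r of 0.61 (permutation p = 0.0346, adjusted 0.073; rho 0.48, permutation p = 0.121). In all, 8 of 19 relations passed after adjustment of the Pearson p, 7 of them positive, with −0.70 for Pdia4 1450620_at, and of the rank correlations that of Hsp90b1 1415889_a_at passed. Without the 2 arrays farthest from the median 18S value, sleep-deprived pull-down 1 and control pull-down 3, r was 0.74 for Hsp90b1, 0.66 for Calr 1433806_x_at and 0.55 for Manf. It was 0.26 for Calr 1417606_a_at and 0.02 for Hyou1 1423290_at, against 0.72 and 0.72 over all 12 arrays, so those relations rest on the 2 arrays. Within sleep-deprived and control pull-downs (6 arrays each) r was 0.90 and 0.90 for Hsp90b1 and 0.94 and 0.90 for Manf.

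Without the 2 pull-down arrays with the most 18S signal, an alternative chosen after the data were seen, Hspa5 1416064_a_at differed by 1.21 between sleep-deprived and control pull-downs, Creld2 by 0.99 and Sdf2l1 by 0.91. Over the members, 14 of 19 differences were positive without those arrays, against 16 with them, and the median was 0.44, against 0.48. The 18S means of the groups are nearly equal, so 18S as a covariate leaves the differences in place by construction and bears only on the spread. With it the unadjusted p of Manf was 0.00238 and that of Hsp90b1 1438040_a_at 0.00255, against 0.0568 and 0.0351 without. By limma 0 of 19 members passed after adjustment in either alternative.

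The Gapdh 3′ minus 5′ difference was compared in the same way over the 12 pull-down arrays, again after the data were seen. None of the 19 relations passed after adjustment of the Pearson p, and 1 rank correlation did, that of Pdia6 1430983_at (rho −0.85, adjusted permutation p = 0.0158). Hspa5 1416064_a_at had an r of 0.56 (permutation p = 0.0567, adjusted 0.147; rho 0.46, permutation p = 0.135), and its r within sleep-deprived and control pull-downs (6 arrays each) was 0.90 and 0.87. Creld2 had an r of 0.50 (permutation p = 0.095; rho 0.43, permutation p = 0.171), with 0.91 and 0.62 within the groups, and Dnajb11 an r of 0.68 (permutation p = 0.0147, adjusted 0.0697; rho 0.53, permutation p = 0.0796), with 0.82 and 0.98. Without control pull-down 11 and sleep-deprived pull-down 10, the arrays farthest from the median, r was 0.28 for Hspa5, 0.36 for Creld2 and 0.46 for Dnajb11. The part of this measure in the sleep differences was not tested.

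**Figure D3:**
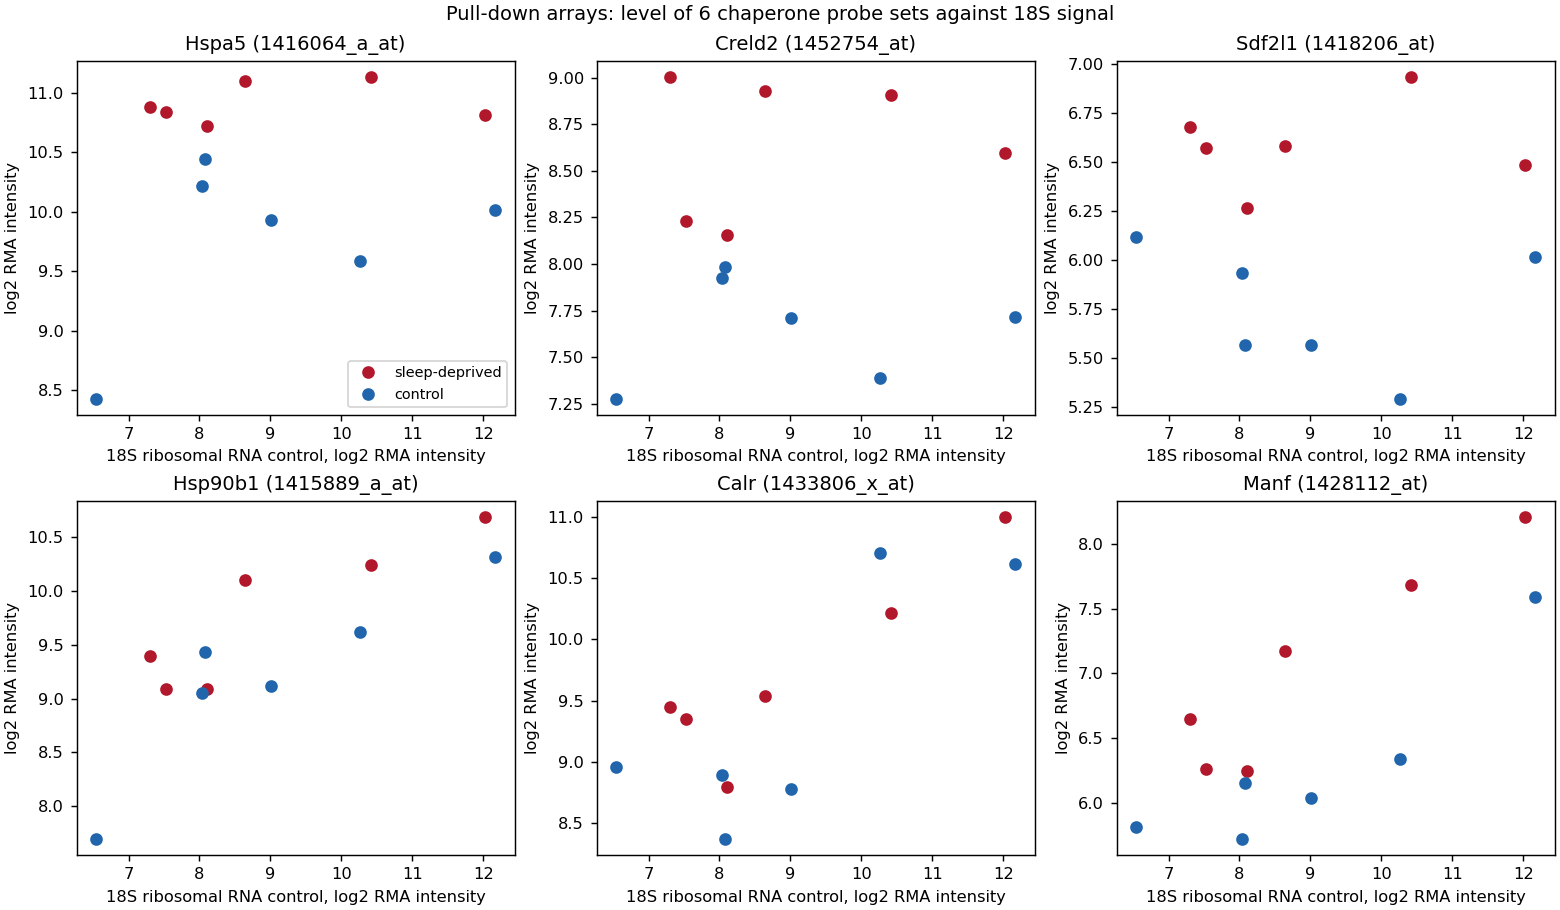
Level of 6 chaperone probe sets (log2 RMA intensity, vertical) against the 18S ribosomal RNA signal (log2 RMA intensity, horizontal) in the 12 pull-down arrays. For Hspa5, Creld2 and Sdf2l1 all sleep-deprived points lie above all control points, whereas Hsp90b1, Calr and Manf climb with 18S (r of 0.83, 0.83 and 0.79).

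Markers of other brain cells were set beside these differences. Of all genes, 36.7% were positive in whole brain and 43.9% in pull-down. In whole brain the difference was positive for 8 of 10 neuron, 6 of 10 astrocyte, 4 of 9 oligodendrocyte, 3 of 9 microglia, 3 of 9 endothelial, 3 of 8 choroid plexus and 2 of 5 blood markers, with 1 oligodendrocyte marker called lower by limma and no other. In pull-down it was positive for 6 of 10 neuron, 5 of 10 astrocyte, 5 of 9 oligodendrocyte, 5 of 9 microglia, 2 of 9 endothelial, 1 of 8 choroid plexus and 1 of 5 blood markers, and none was called. The summed neuron markers ranged from 14.86 to 15.22 in sleep-deprived pull-downs and from 14.47 to 15.15 in control pull-downs, and from 15.22 to 15.28 in sleep-deprived brains and from 15.12 to 15.24 in control brains. The summed choroid plexus markers, which come from a secretory tissue, ranged from 12.41 to 13.15 in sleep-deprived pull-downs and from 12.20 to 13.36 in control pull-downs. No marker is at 0 on this scale, and the part of cell makeup in the chaperone differences was not tested.

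Related genes gave smaller medians than the chaperones, from lists that were chosen with earlier results in view. Of all genes, 36.7% were positive in whole brain (median −0.05) and 43.9% in pull-down (median −0.03). An unadjusted p under 0.05 was found by limma for 10.9% of all probe sets in whole brain and 0.955% in pull-down. Of 23 other ER folding enzymes and chaperones, 13 were positive in whole brain (median 0.02) and 17 in pull-down (median 0.12), and none was called by limma, with 1 unadjusted p under 0.05 in each extract. The glycoprotein oxidoreductase Pdia3 differed by 0.93 ± 0.33 in pull-down and by 0.02 ± 0.12 in whole brain. Dnajc3 1449372_at, another J-domain protein of the ER, differed by 0.58 ± 0.29 in pull-down and by 0.28 ± 0.11 in whole brain. Calnexin (Canx), the membrane-bound partner of calreticulin, differed by 0.42 ± 0.46 in pull-down and by −0.06 ± 0.11 in whole brain.

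Of 27 genes of ER entry and ER-associated degradation, 15 were positive in whole brain and 16 in pull-down, with medians of 0.01 and 0.03. Edem3, which trims mannose from misfolded glycoproteins, differed by 0.53 ± 0.29 in pull-down and by 0.35 ± 0.13 in whole brain. Among 20 sensors and effectors of the unfolded protein response, 9 were positive in whole brain and 11 in pull-down, with medians of −0.01 and 0.01. The medians over all genes were −0.05 in whole brain and −0.03 in pull-down. Xbp1, a transcription factor of the response, differed by 0.59 ± 0.30 in pull-down and by 0.33 ± 0.20 in whole brain, and Atf6 by 0.24 ± 0.35 and 0.32 ± 0.11. Ddit3 (CHOP), which is induced late in the response, differed by 0.08 ± 0.27 in pull-down and by 0.04 ± 0.10 in whole brain. All genes named in this paragraph were positive in both extracts. The genes outside the positive counts of their lists were negative, so the named genes do not stand for their lists.

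Heat shock proteins of the cytosol and mitochondria were positive for 14 of 18 genes in whole brain and 15 of 18 in pull-down, with medians of 0.07 and 0.17. Hspa1b, an inducible cytosolic Hsp70, differed by 0.84 ± 0.26 in pull-down and by 0.0073 ± 0.25 in whole brain. Dnajb5 differed by 0.44 ± 0.21 in pull-down and by 0.49 ± 0.13 in whole brain. No gene of these 3 lists was called by limma in either extract. Unadjusted p under 0.05 numbered 0, 0 and 3 in pull-down (all probe sets: 0.955%) and 1, 1 and 2 in whole brain (all: 10.9%). Of the 18 probe sets that did not overlap upward in pull-down, 2 more, picked out after their values were seen, belong to this machinery. They were Xbp1 1437223_s_at, whose values are those given above, and Dnajc3 1449373_at (0.57 in pull-down, 0.02 in whole brain). No other probe set of Xbp1 or Dnajc3 was among the 18.

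Within whole brain, Creld2 was the member closest to Hspa5. Over the 8 whole-brain arrays its r with Hspa5 1416064_a_at was 0.97, where the median of 10677 candidate genes was −0.05. After removal of the sleep group means r was 0.83. The same values were 0.80 and 0.84 for Sdf2l1 and 0.77 and 0.07 for Dnajb11. For the remaining members r ran from 0.25 for Calr to 0.70 for Pdia4. After removal of group means theirs ran from −0.70 for Calr to 0.56 for Hsp90b1. Over the 12 pull-down arrays r with Hspa5 was 0.88 for Creld2, 0.88 for Dnajb11 and 0.60 for Sdf2l1, and after removal of group means 0.67, 0.72 and −0.19. For the remaining members it ran from −0.22 for Pdia6 to 0.66 for Hsp90b1. After removal of group means theirs ran from −0.46 for Pdia4 to 0.63 for Hsp90b1. Outside the members, the 5 genes with the most similar profile over the 8 arrays were Sult1a1 and Slco4a1 (r = 0.97 each), Cul9 (0.96), Map3k6 and Rexo4 (0.95 each). The 8 whole-brain arrays share the same sleep contrast, and their medians ranged from 6.04 to 6.24. Their r with the array median was −0.50 for Hspa5 1416064_a_at, −0.63 for Creld2, −0.59 for Dnajb11 and −0.09 for Sdf2l1. The part of array level in these correlations was not tested, and the correlations are descriptions.

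Most chaperone probe sets read lower in pull-down RNA than in whole-brain RNA, as most of the array did. By limma on all 24 arrays, 16 of 19 members were lower (all probe sets: 76.3%) and 1 was higher (all: 8.06%). The members' median difference was −1.08, where that of all probe sets was −0.78. In 6 of 19 every pull-down array was below every whole-brain array, which held for 27.5% of all probe sets. After quantile normalization 4 were higher and 11 lower, where 32.3% and 26.2% of all were, and after centring 6 were higher and 6 lower, where 52.0% and 18.3% of all were. Against supernatant, 15 of 19 members were lower (all: 67.4%) and 1 higher (all: 11.2%), with a median of −1.07 against −0.85 over all. Here quantile normalization gave 3 higher and 11 lower (all: 27.2% and 27.6%), and centring 4 higher and 2 lower (all: 44.1% and 18.8%).

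Taken against both other extracts at once, 15 of 19 members were depleted in pull-down (all: 65.8%), 1 was enriched (all: 7.46%) and 3 were neither. Among the largest differences was that of Hsp90b1 1438040_a_at, with a lowest value of 6.43, a median of 8.24 and a highest of 10.29 in pull-down, against 10.89, 11.07 and 11.25 in whole brain. Every pull-down array was below every whole-brain array, and the difference of −2.70 ± 0.28 (limma, adjusted p = 3.43e-09) kept its sign after centring. Calr 1417606_a_at (−2.52 ± 0.25) and Manf (−2.29 ± 0.25) likewise did not overlap.

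Creld2 and 2 of the 3 Hspa5 probe sets were the members neither depleted nor enriched against both other extracts. Creld2 read 7.28, 8.07 and 9.0 (lowest, median, highest) in pull-down, against 7.89, 8.23 and 8.61 in whole brain, and its difference of −0.09 ± 0.20 (limma, adjusted p = 0.682) was 0.70 above the median of all probe sets. It turned to 0.56 after quantile normalization and 1.07 after centring, both past the threshold. Hspa5 1416064_a_at was lower than in whole brain by limma (−0.80 ± 0.19, adjusted p = 0.000521) and read 0.37 ± 0.24 against supernatant (adjusted p = 0.16). Its whole-brain difference was 0.35 after centring.

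Probe sets of 1 gene did not always go the same way. Hyou1 1423291_s_at read 8.69, 10.23 and 10.38 (lowest, median, highest) in pull-down, against 8.77, 9.0 and 9.12 in whole brain. It was higher by 1.10 ± 0.17 (limma, adjusted p = 1.44e-06) and higher than in supernatant by 1.74 ± 0.21. The other Hyou1 probe sets were lower, by −1.23 ± 0.30 for 1423290_at and −2.14 ± 0.22 for 1451913_a_at against whole brain. A suffix of _s_at or _x_at marks probe sets that can bind transcripts of more than 1 gene or transcript. Hspa5 likewise gave −1.85 ± 0.24 for 1427464_s_at and 0.07 ± 0.13 for 1447824_x_at.

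**Figure D4:**
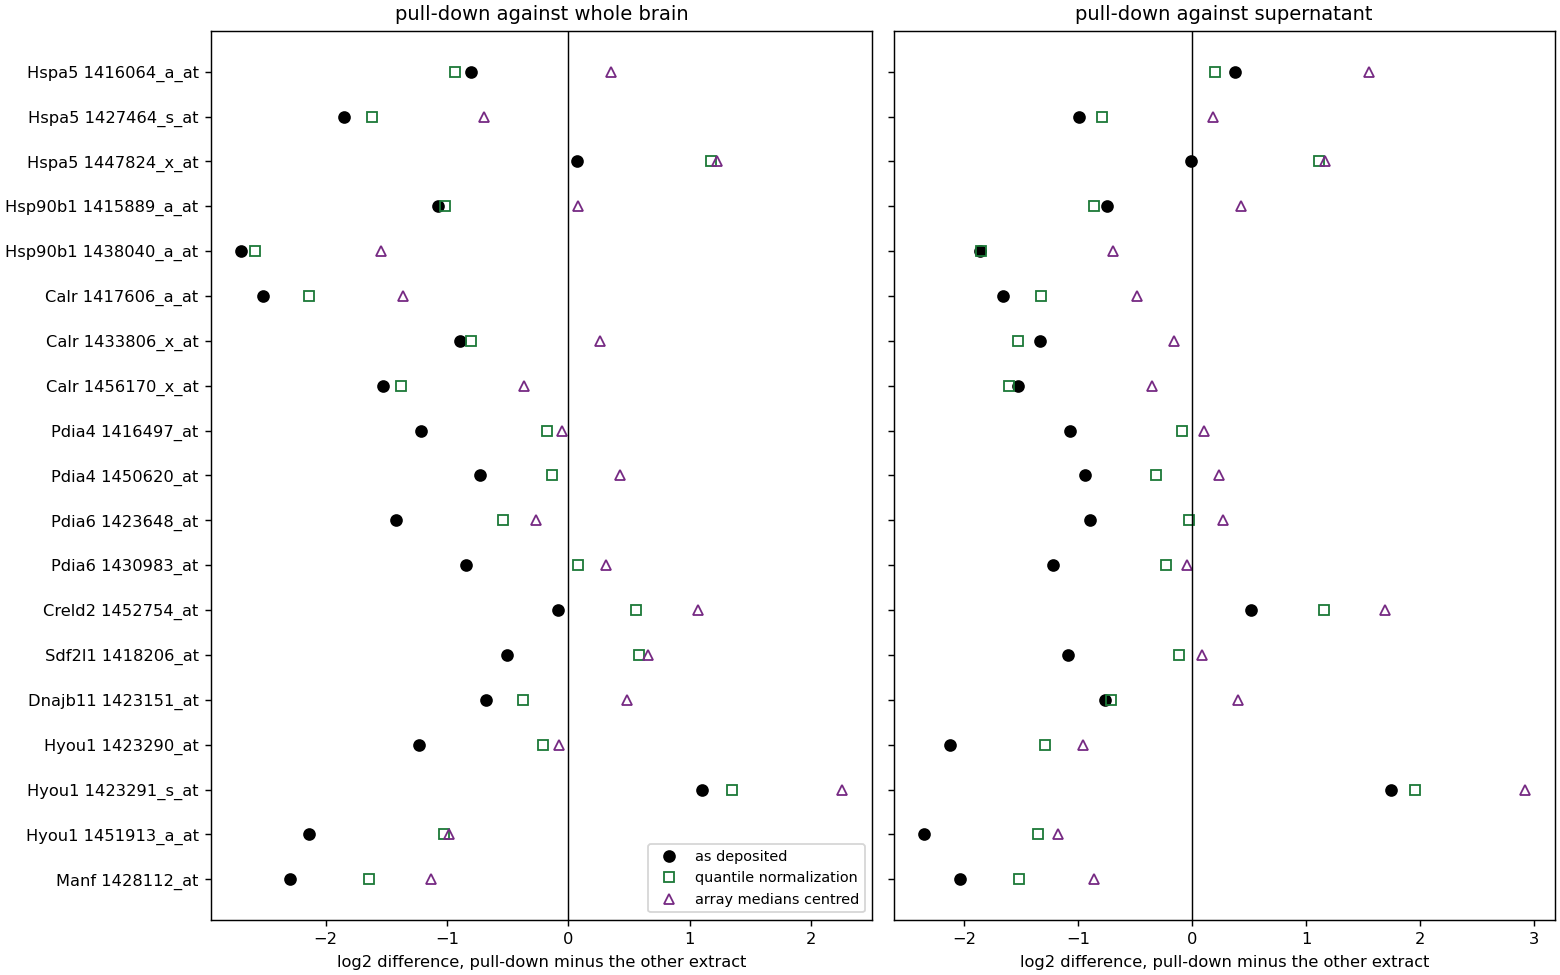
Difference of pull-down from whole brain (left) and from supernatant (right), in log2 units, for each chaperone probe set as deposited, after quantile normalization and after centring each array on its median. Most deposited values lie below 0 and shift upward with the scaling, while Hyou1 1423291_s_at lies above 0 in all of them.

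Markers of glia and vessels had the lowest medians of the lists set beside the chaperones. Against whole brain the median over all genes was −0.64, and 76.3% of all probe sets were called lower and 8.06% higher. The medians of the neuron, choroid plexus and blood markers lay near that of all genes. Against whole brain the median difference was −1.75 for oligodendrocyte markers (8 of 9 called lower), −1.83 for microglia (9 of 9) and −1.94 for endothelial cells and pericytes (9 of 9). It was −1.70 for astrocytes (8 of 10 lower, 1 higher), −0.67 for neurons (5 of 10 lower, 1 higher), −0.77 for choroid plexus (6 of 8 lower) and −0.79 for blood (5 of 5 lower). The other heat shock proteins had a median of 0.08 (6 of 18 higher, 8 lower), and Hspa1b was higher by 2.91 ± 0.22. The other ER folding genes had a median of −0.89 (16 of 23 lower, 5 higher), the ER entry and degradation genes −0.46 (16 of 27 lower, 6 higher) and the unfolded protein response genes −0.52 (12 of 20 lower, 7 higher). The part of cell makeup, fixation and amplification in these differences was not tested.

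Fitted with the pull-down arrays included, whole brain and supernatant, both total RNA, differed past the threshold at 1 chaperone probe set, of Hspa5. By limma 1 of 19 members was higher in whole brain (all: 8.89%) and 0 were lower (all: 2.01%), with 9 of 19 at an unadjusted p under 0.05 (all: 22.3%). After quantile normalization 5 were higher and 3 lower (all: 11.4% and 9.61%), and after centring 2 were higher and 0 lower (all: 6.73% and 3.91%). Hspa5 1416064_a_at read from 10.78 over a median of 11.20 to 11.55 in whole brain, against 9.46, 9.65, 10.17 and 10.58 in supernatant. The groups did not overlap, and the difference was 1.18 ± 0.26 (limma, adjusted p = 0.00277), or 2.26-fold. The count of called members was 3 without supernatant 15 and 2 without supernatant 16. With only the whole-brain and supernatant arrays in the fit, 6 of 19 members were higher and 3 lower (all: 19.5% and 17.5%). The median member difference was 0.14 in both fits, so the count depends on which arrays set the spread. In the fit with the pull-down arrays, Sdf2l1 differed by −0.59 ± 0.21 (limma, adjusted p = 0.0735). Creld2 differed there by 0.60 ± 0.26 and Dnajb11 by −0.09 ± 0.19.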

How the data were processed

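Values are log2 intensities that the authors deposited, 1 for each probe set on each array. They come from RMA in the affy package per the submitters' processing notes, with no version given. RMA corrects background, normalizes quantiles and summarizes probes, and its values are not comparable between probe sets. Arrays normalized together by quantiles have equal medians, but the deposited medians ranged from 4.37 to 6.24. Array-wide differences thus remained, and levels of 1 probe set are comparable between arrays only within that limit. The deposited values were used without further scaling, offset or filter. Of 45101 probe sets, 64 controls were left out and 45037 were tested. Gene symbols came from the array's annotation of 2016.

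Tests used R 4.3.3 and limma 3.58.1 (lmFit, eBayes), two-sided, adjusted by Benjamini-Hochberg over all 45037 probe sets with a threshold of 0.05, and were tested on simulated data. Sleep deprivation was fitted on the arrays of each extract, its difference between extracts as an interaction on 20 arrays, and extract comparisons on all 24. Relations with 18S and with the Gapdh 3′ minus 5′ difference (19 each, adjusted separately) used 100000 permutations of the arrays. Every member probe set is named. Of each related list (other ER folding genes, ER entry and degradation, unfolded protein response, cytosolic and mitochondrial heat shock proteins) up to 4 genes per comparison qualified, by threshold and then by size of difference, and each named gene is given in both extracts. Ddit3 was named beyond that rule after its values were seen. Each gene is represented by its probe set of highest mean, also in the 7 marker lists. The alternatives were quantile normalization, centring, a filter on low values, array weights, a variance trend, other sets of arrays, and each array left out. The members and lists were chosen with earlier results of these data known. The labels name no pairing of arrays, so p-values measure the spread between these samples. Arrays have no read depth, and their number limits the precision.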

Additional observations from a re-analysis of the deposited data

Results flagged for a closer look

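Of 95 groups of values examined (19 probe sets in 5 groups), 6 held an array whose gap to its nearest neighbour took an unusual share of the group's whole range. Chance alone gives about 1 in 20. In sleep-deprived pull-downs, Hspa5 1447824_x_at read 6.96 in array 12, against 6.50 in the next, a gap of 0.658 of the range. In control pull-downs, array 3 was high for Calr 1417606_a_at (8.57, next 7.10, gap 0.825 of the range) and for Manf (7.59, next 6.34, gap 0.669). Array 3 also had the highest 18S signal, 12.2. Control pull-down 11 was low for Dnajb11 (8.03, next 8.60, gap 0.705 of the range), and control pull-down 8 was low for Hyou1 1423291_s_at (8.69, next 10.00, gap 0.805). In sleep-deprived brains, Calr 1433806_x_at read 10.64 in array 20, against 10.49 in the next, a gap of 0.889 of a narrow range.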

How the results depend on the processing

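No paired analysis was possible because the groups compared share fewer than 2 replicate numbers. The members called for sleep deprivation numbered 0 in pull-down, whole brain and their interaction under every alternative run, except 1 with a variance trend in whole brain. Leaving out each array in turn gave 0 to 0 in all 3. The pull-down against whole brain count of 17 was 17 to 17 with arrays left out. Over all 45037 probe sets it was 38008 as deposited and 36606 to 39784 with arrays left out. Against supernatant the count of 16 was 15 to 18 with arrays left out and 6 after centring. Over all probe sets it was 35387 as deposited, 32699 to 37567 with arrays left out and 28315 after centring. The whole brain against supernatant count of 1 was 8 after quantile normalization, 2 after centring, 3 with the filter, 9 with array weights, 9 with only the extracts' arrays, and 1 to 3 with arrays left out. Over all probe sets the count moved as well. It was 4913 as deposited, 9482 after quantile normalization, 4790 after centring and 5101 of 22518 with the filter. It was 13843 with array weights, 16702 with only the extracts' arrays and 3022 to 4324 with arrays left out.

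The members that were called as deposited or under the alternative turned sign in pull-down comparisons under 2 scalings. Against whole brain, quantile normalization gave 0.075 for Pdia6 1430983_at, 0.56 for Creld2 and 0.58 for Sdf2l1. Centring gave 0.35 for Hspa5 1416064_a_at, 0.076 for Hsp90b1 1415889_a_at, 0.26 for Calr 1433806_x_at, 0.42 for Pdia4 1450620_at, 0.31 for Pdia6 1430983_at, 1.07 for Creld2, 0.65 for Sdf2l1 and 0.48 for Dnajb11. Against supernatant, quantile normalization gave 1.11 for Hspa5 1447824_x_at. Centring gave 0.19 for Hspa5 1427464_s_at, 1.17 for 1447824_x_at, 0.43 for Hsp90b1 1415889_a_at, 0.10 for Pdia4 1416497_at, 0.24 for 1450620_at, 0.27 for Pdia6 1423648_at, 0.084 for Sdf2l1 and 0.41 for Dnajb11. Of 2401 alternative values of single members, 2232 kept call and direction, 19 lost a call, 42 gained one and 20 turned as above. Another 88, called under neither setting, changed sign, 70 of them with 1 array left out. They were 46 in the difference of sleep deprivation between extracts, 17 in sleep deprivation in pull-down, 7 in sleep deprivation in whole brain, 9 in pull-down against supernatant, 1 in pull-down against whole brain and 8 in whole brain against supernatant. The cause of these shifts was not tested.

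Over all probe sets, the calls for sleep deprivation in whole brain were 21 as deposited (16 higher, 5 lower), 48 after quantile normalization, 46 after centring (40 higher, 6 lower), 54 with the filter, 59 with a variance trend, 0 in 1 fit of 24 arrays and 1 to 16 with an array left out. In pull-down they were 0 as deposited, 2 with array weights, 3 in 1 fit of 24 arrays and 1 with 18S as a covariate.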

Other observations

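Genes outside the members whose promoter also held an exact ERSE or ERSE-II numbered 43, of which 23 were measured. After sleep deprivation 13 of 23 were positive in pull-down (median difference 0.07, all genes −0.03) and 12 of 23 in whole brain (median 0.0026, all genes −0.05). Of all genes, 43.9% were positive in pull-down and 36.7% in whole brain. By limma no gene with the element was called in either extract. Unadjusted p under 0.05 numbered 0 in pull-down (all probe sets: 0.955%) and 3 in whole brain (all: 10.9%).

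The 4 supernatants spread widely for some chaperones. By their labels 14 and 15 are sleep-deprived, 16 is control and the labels of 13 disagree. The part of sleep in this spread was not tested. Creld2 read 8.89 in supernatant 15, 7.79 in 14, 6.96 in 13 and 6.90 in 16. Hspa5 1416064_a_at read 10.17 in supernatant 15, 10.58 in 14, 9.46 in 13 and 9.65 in 16.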
